A study of Mus musculus with 8 samples.

Results

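The interferon response genes described here are a list of 40 mouse genes that interferons are known to induce or that carry their signal. They were taken by gene symbol. Their values were not part of the rule, but the list was made with earlier results of these data known. Of the 40 listed genes, 36 were measured by a probe set that carries a single gene symbol, out of 12394 genes measured in this way. Isg15 was left out because its probe set carries 2 symbols, and Ddx58, Ifi44 and Xaf1 were not measured under this rule. The series asked what activation of the aryl hydrocarbon receptor (AhR) does to immature T cells in the thymus and to cells that have just left it. Female C57BL/6 mice aged 6 to 8 weeks were injected intraperitoneally with corn oil alone or with 10 µg/kg of the dioxin TCDD, a strong AhR ligand, in corn oil. FITC, a fluorescent dye, was injected into the thymus 5 days later to mark its cells, and CD4-CD8- cells were sorted 24 h after that. Cells sorted from the thymus are called thymocytes here and those sorted from the spleen emigrants. RNA was amplified and hybridised to Affymetrix arrays, with 8 arrays in 4 groups of 2: thymocytes after oil, thymocytes after TCDD, emigrants after oil and emigrants after TCDD.

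Several labels limit these groups. Groups follow the sample titles, but emigrants oil 1 carries a Treatment field with TCDD at 10 nM, emigrants oil 2 one with the words Dioxane 2, some emigrant arrays name thymus as their tissue, and the description of the thymocyte TCDD arrays speaks of corn oil only. Nothing in the labels tells whether 2 arrays of a group stem from different mice, so a p-value reflects only how far these arrays scatter, which may be technical. The labels do not say either what arrays with the same number have in common. Levels are the deposited log2 values, and a difference of 1 on this scale is a doubling. In sorted bulk samples a lower level can mean fewer cells of a type or less RNA per cell, and these cannot be told apart.

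Interferons are secreted proteins by which cells warn each other of infection. Type I interferons (the interferon alphas and beta) signal through the Ifnar1 and Ifnar2 receptor chains and the kinases Jak1 and Tyk2, and a complex that holds Stat2 and Irf9 then binds the interferon-stimulated response element of target genes. Interferon gamma, the product of Ifng, signals through Ifngr1, Ifngr2, Jak1 and Jak2, and acts on target genes through the gamma-activated site. The induced proteins include RNA-binding blockers of viral translation, oligoadenylate synthetases that activate an RNase, GTPases that attack vacuoles of intracellular microbes, and membrane proteins that stop virus entry or release. AhR works by another route, in which it binds the dioxin response element together with its partner Arnt.

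The promoters of the group carry the first of these elements far more often than promoters do in general. The 5 examples shown were taken from genes described below that carry its core. Other genes of the comparisons, Isg20, Oasl2 and Samhd1 among them, had no such core in their promoters. Promoters were the 250 bases before and 50 bases after each gene's start in RefSeq (GRCm38.p6), where 34 of the 40 listed genes had 41 entries. The core of the interferon-stimulated response element (GAAA, any 2 bases, GAAA), searched on both strands as the other motifs were, stood in 19 of the 41 (46.3%) and in 3.44% of all 32851 promoters of the table. The gamma-activated site (TTC, any 3 bases, GAA) stood in 10 of the 41 (24.4%) and in 8.3% of all. GCGTG, the core of the dioxin response element, stood in 15 of the 41 (36.6%) and in 32.4% of all, a share near that of promoters in general. Each motif was counted by itself, whether or not it overlapped another. Each line gives the 140 bases that end just before the start of the gene, 5′ to 3′ on the strand of the gene. Only the cores of the interferon-stimulated response element are in capitals (read as TTTC, any 2 bases, TTTC where the match is on the other strand).
Ifit1, chr19:34640749-34640888, plus strand: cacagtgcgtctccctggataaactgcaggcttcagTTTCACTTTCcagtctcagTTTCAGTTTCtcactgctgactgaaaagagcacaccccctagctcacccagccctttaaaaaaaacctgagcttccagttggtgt
Rsad2, chr12:26456453-26456592, minus strand: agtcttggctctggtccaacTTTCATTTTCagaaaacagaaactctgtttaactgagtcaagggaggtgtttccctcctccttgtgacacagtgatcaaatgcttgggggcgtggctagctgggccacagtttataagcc
Gbp2, chr3:142620523-142620662, plus strand: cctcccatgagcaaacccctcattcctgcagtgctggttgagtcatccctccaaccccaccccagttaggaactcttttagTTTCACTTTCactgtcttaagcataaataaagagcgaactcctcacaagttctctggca
Igtp, chr11:58199416-58199555, plus strand: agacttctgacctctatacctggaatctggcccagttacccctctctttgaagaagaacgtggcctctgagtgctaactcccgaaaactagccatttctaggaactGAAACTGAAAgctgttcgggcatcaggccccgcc
Irgm1, chr11:48871421-48871560, minus strand: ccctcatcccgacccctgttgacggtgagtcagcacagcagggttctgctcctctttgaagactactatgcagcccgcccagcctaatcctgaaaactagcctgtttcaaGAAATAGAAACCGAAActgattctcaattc
Ifit1 and Irgm1 hold 2 cores each, which in Irgm1 overlap. Those of Ifit1 begin at -104 and -85 from the start, those of Irgm1 at -30 and -24, and the single cores of Rsad2, Gbp2 and Igtp at -120, -59 and -34. Igtp also has a gamma-activated site at -45, just before its core. Rsad2 also has GCGTG, the core of the dioxin response element, at -31, in lower case above. Ifitm1, which had the largest difference after TCDD in both sources, had none of the 3 motifs in its window, which says only that these letters are not there. A match describes the sequence and does not show that a factor binds.

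Of the AhR targets read to check the exposure, Cyp1b1, Tiparp and Ahrr had both TCDD arrays above both oil arrays in each source. Cyp1b1, a cytochrome P450 induced by AhR, lay at 4.62 and 5.04 in the oil thymocytes against 8.46 and 9.59 after TCDD. In the emigrants it lay at 4.69 and 6.25 after oil against 6.87 and 8.36 after TCDD. Cyp1a1, another such target, did not show the exposure in the thymocytes, at 3.78 and 4.07 after TCDD against up to 4.06 after oil. In the emigrants Cyp1a1 was at 4.20 and 4.08 after oil and at 4.22 and 5.59 after TCDD, so only TCDD 2 stood clearly higher. The list of early T cell genes averaged 8.32 to 8.62 in the thymocytes and 6.63 to 7.63 in the emigrants. Ptcra, the pre-T cell receptor alpha chain, was at 5.08 to 7.00 in the emigrants against 8.83 to 9.45. Rag1, of the same list, was at 9.33 to 10.21 in the thymocytes. It was at 9.81 in emigrants oil 2 but at 3.75 to 5.10 in the other emigrant arrays. Cd3e was not lower in the emigrants, at 8.30 to 8.91 against 8.09 to 8.34, and Cd3d overlapped. The emigrant arrays thus only partly carried the markers of immature T cells, and the oil emigrant arrays differed from each other in Rag1. NK cell markers averaged 7.15 to 8.35 in the emigrants and 6.68 to 7.71 in the thymocytes. With all 8 arrays in 1 limma fit, no gene passed an adjusted p of 0.05 in any comparison (0 of 12394, or 0.0%). At an unadjusted limma p under 0.05 there were 116 higher and 78 lower genes for TCDD in thymocytes, 67 and 79 for TCDD in emigrants, 555 and 631 for emigrants against thymocytes under oil, and 472 and 551 under TCDD. None of the 36 interferon response genes therefore passed, and their differences are given as measured. The between-source and TCDD comparisons share arrays: the oil thymocytes serve as control both for the TCDD thymocytes and for the oil emigrants.

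The interferon response genes typically spanned a wider range across the arrays than genes in general. Their variance was divided within and between groups much as that of all genes. The median gene of the list spanned 1.18 log2 units from its lowest to its highest array, against 0.68 over all genes. Of its variance, the median share that lay between arrays of the same group was 56.5% (59.9% over all genes), with 15.8% between sources (18.7%) and 4.84% between treatments (4.28%). Treatment took over 50% of the variance of 3 genes, Isg20 (60.6%), Ifitm1 (52.5%) and Ifit3 (51.8%). Source took over 50% for 10, led by Samhd1 (85.7%) and Parp14 (84.6%). The spread within groups did so for 19, led by Oasl1 (94.9%), Irf9 (93.8%) and Bst2 (92.7%). How many of all genes pass 50% was not counted, so these 3 counts describe the list only. Of the 36 genes, 28 lay above the array median on all 8 arrays, while Mx1 and Oasl1 lay below it on all 8. The range of the list was not compared with that of genes at equal levels.

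**Figure D1:**
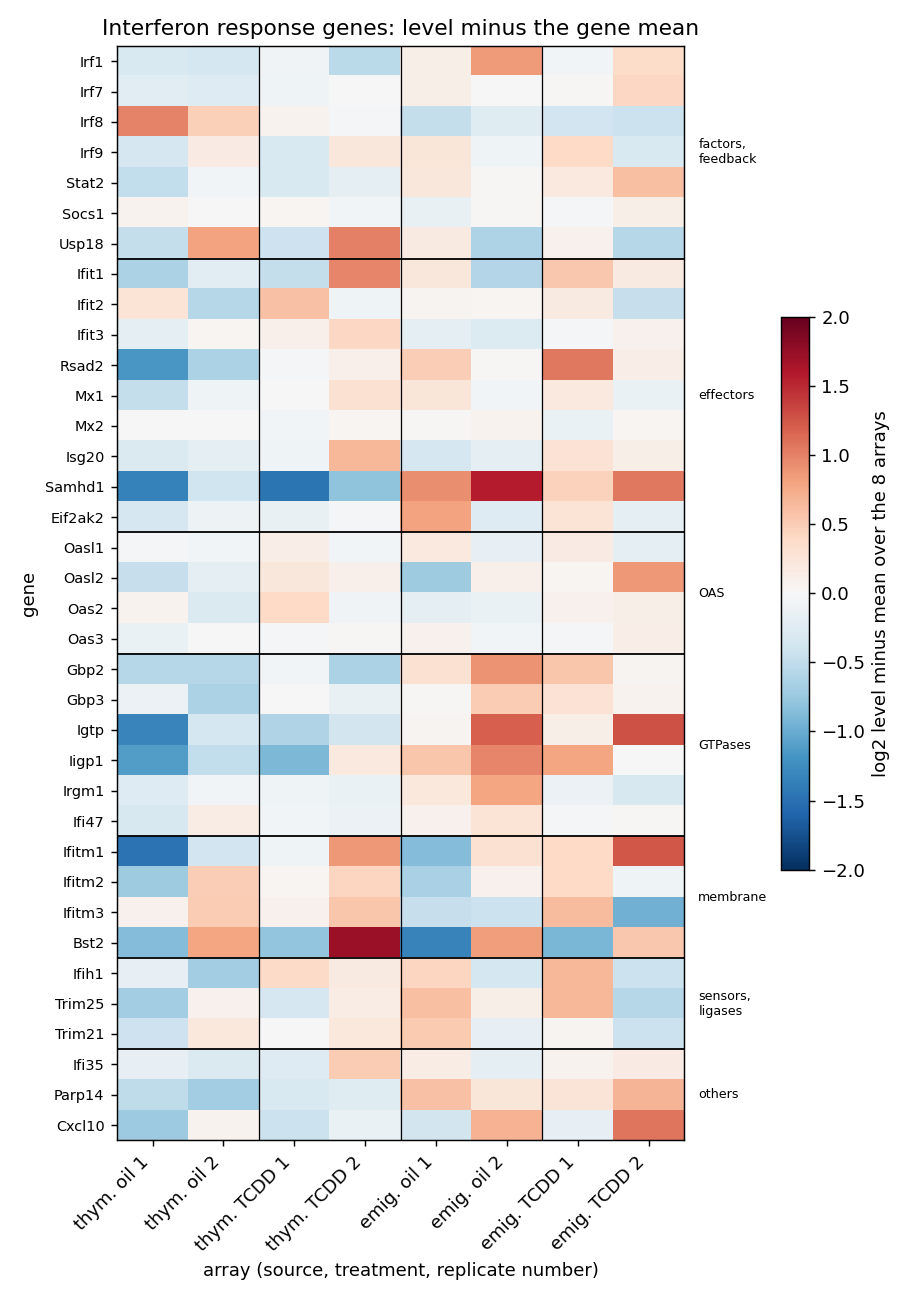
Heat map of the 36 measured interferon response genes (rows, grouped by role) on the 8 arrays (columns, by source, treatment and replicate number). Colour is the log2 level minus the mean of the gene over the 8 arrays. The thymocytes oil 1 column holds the lowest array for 14 of the 36 genes, and Samhd1 is higher in all 4 emigrant columns than in all 4 thymocyte columns.

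TCDD in the thymocytes went with slightly higher means across most of the group. Of the 36 genes, 32 (88.9%) had a higher mean after TCDD, against 48.6% of all genes, and the median log2 difference was 0.22 (all genes -0.01). The TCDD array was above the oil array of the same number in both numbers for 22 genes (61.1%, against 25.7% of all genes) and below it in both for 3 (8.33%, against 28.9%). For 9 genes each TCDD array exceeded each oil array (25%, against 9.78%), and for 1, Irf8, each was lower (2.78%, against 11.4%). At an unadjusted limma p under 0.05 there was 1 higher gene, Rsad2 (2.78%, against 0.936%), and 1 lower, Irf8 (2.78%, against 0.629%). These counts rest in large part on single arrays. Thymocytes oil 1 was the lowest of the 8 arrays for 14 of the 36 genes (20.5% of all genes), and without it 20 of 36 had a higher mean, with a median of 0.03. Without thymocytes TCDD 2 it was 23 of 36, with a median of 0.09. The actin and Gapdh 3 prime minus 5 prime signals, a measure of RNA integrity, were higher in both number 1 thymocyte arrays (4.12 and 4.31 for actin, 6.23 and 5.90 for Gapdh) than in both number 2 arrays (3.12 and 3.06 for actin, 4.97 and 4.78 for Gapdh). Their part in the shift was not tested.

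In the emigrants no such general shift was seen. A higher mean after TCDD was found for 19 of 36 genes (52.8%, against 55.6% of all genes), with a median difference of 0.05 (all genes 0.03). The TCDD array was above its same-numbered oil array in both numbers for 10 genes (27.8%, against 26.9%) and below it for 8 (22.2%, against 22.0%), which is the share of genes in general. Each TCDD array exceeded each oil array for 4 genes, Ifitm1, Isg20, Ifit3 and Oas2 (11.1%, against 14.6%), and was lower than each for 2, Irgm1 and Ifi47 (5.56%, against 10.1%). At an unadjusted limma p under 0.05 there were 0 higher genes (0.541% of all) and 1 lower, Irgm1 (2.78%, against 0.637%). With emigrants oil 1 moved to the TCDD group on the word of its Treatment field, 19 of 36 were again higher but 14 genes changed the sign of their difference. The granulocyte markers averaged 8.36 in emigrants TCDD 1 and 5.70 in emigrants TCDD 2, with 6.23 and 6.00 in the oil emigrants, so these arrays also differed in other cells; their part here was not tested.

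A smaller set was higher in every one of the 4 same-numbered pairs. These were Ifitm1, Rsad2, Oasl2, Ifit1, Isg20, Ifit3 and Oas2, which is 7 of 36 (19.4%, against 6.79% of all genes), and 1 gene, Samhd1, was lower in all 4 (2.78%, against 5.88%). The number 1 emigrant pair rests on the title of emigrants oil 1, whose Treatment field names TCDD. Of the 7, 4 are antiviral effectors and 2 belong to the oligoadenylate synthetase family. None of the GTPases, transcription factors or RNA sensors was among them. With 6.79% of all genes higher in all 4 pairs and so few genes per role, this does not set these roles apart from genes in general. In a contrast of TCDD minus oil averaged over both sources, added after the data were seen, 5 of the 36 genes were higher at an unadjusted limma p under 0.05 (13.9%, against 0.734% of all genes) and 1 lower, Irf8 (2.78%, against 0.67%), all with a limma adjusted p of 0.9997.

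**Figure D2:**
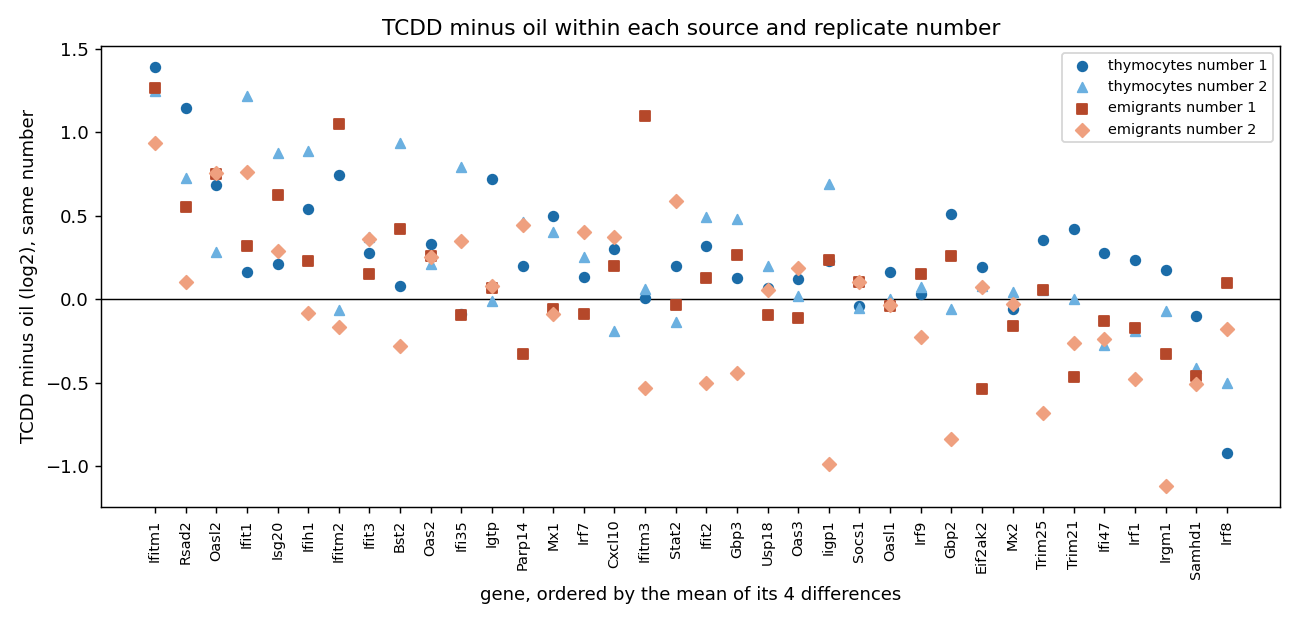
TCDD minus oil on the log2 scale (vertical axis) between arrays of the same source and replicate number, for the 36 genes (horizontal axis, ordered by the mean of their 4 differences). Blue points are thymocytes and red points emigrants, and the 7 genes with all 4 points above 0 include Ifitm1, whose points lie between 0.94 and 1.39.

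Ifitm1 encodes an interferon-induced membrane protein that hinders virus entry. It lay at 7.72 and 8.80 in the oil thymocytes and at 9.11 and 10.05 in the TCDD thymocytes. In the emigrants it lay at 8.33 and 9.49 after oil and at 9.59 and 10.42 after TCDD. In each source both TCDD arrays were above both oil arrays, and number 2 was above number 1 in all 4 groups. The same-numbered differences were 1.39 and 1.25 in the thymocytes and 1.27 and 0.94 in the emigrants, so the pairs differed from each other far less than the arrays of a group did. The means differed 2.50-fold in the thymocytes (log2 difference 1.32, SE 0.58, limma adjusted p = 1) and 2.15-fold in the emigrants (1.10, SE 0.58, limma adjusted p = 0.9998). The emigrant difference rests on the title of emigrants oil 1. With that array read as TCDD after its Treatment field, the remaining oil emigrant array, at 9.49, lay between TCDD arrays at 8.33 and 9.59. Averaged over both sources, with groups by title, the Ifitm1 difference was 1.21 (SE 0.41, limma adjusted p = 0.9997). It stayed between 0.92 and 1.50 with any single array left out. Its relatives differed less evenly: the pairs of Ifitm2 had opposite signs in both sources, and Ifitm3 lay at 7.37 and 7.41 in the oil emigrants but at 8.47 and 6.88 after TCDD, on either side of them.

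Rsad2, which encodes viperin, an enzyme that blocks the replication of many viruses, lay at 8.21 and 8.75 in the oil thymocytes and at 9.36 and 9.47 after TCDD. Both TCDD thymocyte arrays were above both oil arrays (log2 difference 0.94, SE 0.35, 1.91-fold, limma adjusted p = 1). The emigrants lay at 9.87 and 9.40 after oil and at 10.43 and 9.50 after TCDD, so those groups overlapped (difference 0.33, SE 0.35). Without thymocytes oil 1 the thymocyte difference was 0.67, and without emigrants TCDD 1 the emigrant difference turned to -0.13. Another Rsad2 probe set, at a mean level of 7.11, differed by 0.28 in the thymocytes and 0.59 in the emigrants, and a dim one at 4.33 by -0.21 and 0.13.

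The Ifit genes encode proteins that bind foreign RNA and block its translation. Ifit1 lay at 5.71 and 6.11 in the oil thymocytes and at 5.87 and 7.33 after TCDD, and at 6.57 and 5.76 in the oil emigrants and 6.89 and 6.52 after TCDD. The groups overlapped in both sources, and the thymocyte difference of 0.69 (SE 0.51) became -0.04 without thymocytes TCDD 2. Ifit3 had smaller but tighter differences. It lay at 6.04 and 6.25 against 6.32 and 6.62 in the thymocytes (difference 0.33, SE 0.17) and at 6.04 and 5.94 against 6.19 and 6.30 in the emigrants (0.25, SE 0.17), and neither source had overlapping groups. Ifit2, by contrast, had pair differences of 0.32 and 0.49 in the thymocytes and of 0.13 and -0.50 in the emigrants.

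Isg20, an exonuclease that degrades single-stranded RNA, lay at 6.51 and 6.60 in the oil thymocytes and at 6.72 and 7.47 after TCDD. In the emigrants it was at 6.47 and 6.62 after oil and at 7.09 and 6.91 after TCDD. All 4 oil arrays were thus below all 4 TCDD arrays. The averaged difference was 0.50 (SE 0.18, limma adjusted p = 0.9997), between 0.31 and 0.69 with any array left out. In the thymocytes the difference of 0.54 was 0.17 without TCDD 2.

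Among the oligoadenylate synthetases, Oasl2 lay at 5.14 and 5.42 in the oil thymocytes and at 5.83 and 5.70 after TCDD. The emigrants were at 4.89 and 5.71 after oil and at 5.64 and 6.47 after TCDD, where the groups overlapped but both pairs differed alike, by 0.75 and 0.76. With emigrants oil 1 (4.89) read as TCDD after its Treatment field, the remaining oil array, at 5.71, lay within the range of the TCDD arrays. Oas2, one of the enzymes that make the RNase activator, differed by 0.33 and 0.21 in the thymocyte pairs and by 0.26 and 0.25 in the emigrant pairs. Its averaged difference was 0.26 (SE 0.15), the smallest of the 7. Oas3 and Oasl1 had averaged differences under those of the other members of the family, from levels that spanned 5.31 to 5.58 and 4.44 to 4.85 over the 8 arrays.

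**Figure D3:**
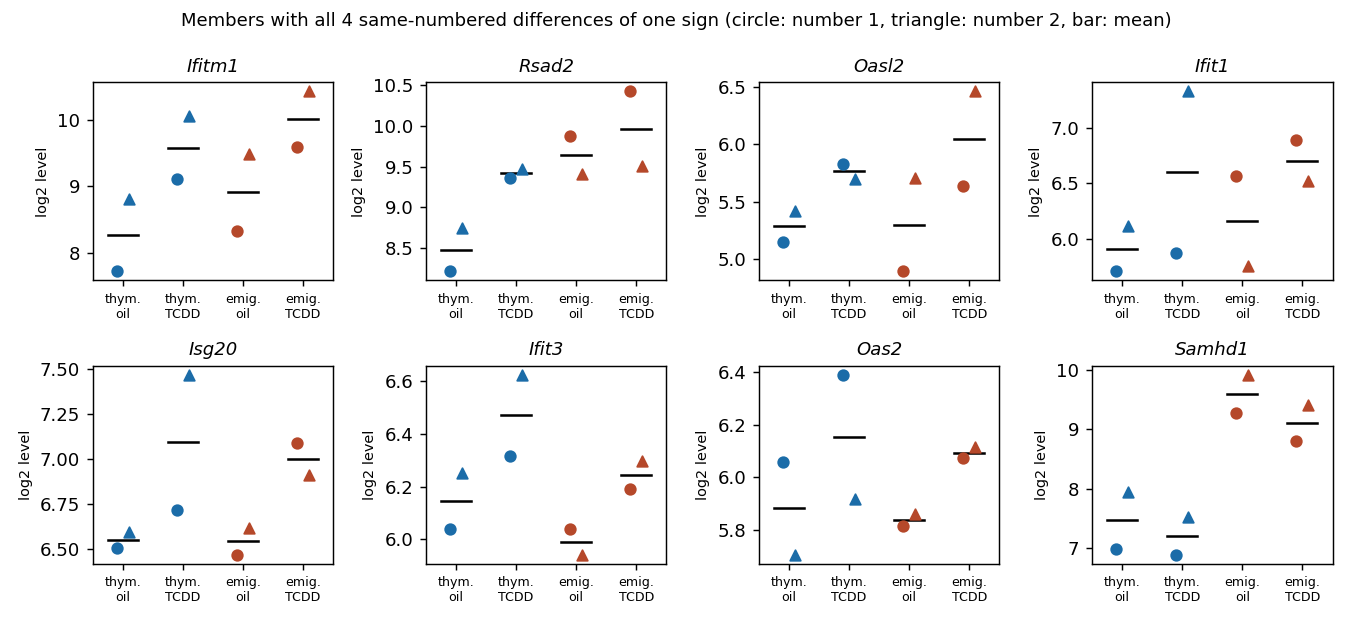
Log2 level (vertical axis, own scale in each panel) of the 8 genes whose 4 same-numbered differences have one sign, by group (horizontal axis). Circles are number 1 arrays, triangles number 2 arrays and bars group means. Isg20 has all TCDD arrays above all oil arrays, and Samhd1 is the gene lower after TCDD in every pair.

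Irf8 stood opposite to most of the group in the thymocytes. This transcription factor of dendritic and other myeloid cells, which B cells also express, lay at 6.38 and 5.87 in the oil thymocytes and at 5.46 and 5.37 after TCDD, with no overlap (difference -0.71, SE 0.20, 1.64-fold lower, limma adjusted p = 1). All 4 emigrant arrays, at 4.91, 5.15, 5.00 and 4.97, were below all thymocyte arrays and close to their array medians of 4.85 to 4.91. The thymocyte difference was -0.46 without oil 1 and -0.97 without oil 2. A dimmer Irf8 probe set, at a mean level of 4.67, differed by 0.03. Markers of plasmacytoid dendritic cells averaged 6.94 and 6.89 in the oil thymocytes and 6.95 and 7.18 after TCDD, and those of B cells 5.78 and 6.02 against 5.72 and 6.30, so neither list was lower after TCDD within both numbers. The list of conventional dendritic cells averaged 5.29 and 5.40 against 5.27 and 5.36, with Xcr1, Zbtb46 and Cd209a below the array median on all 8 arrays, and that of macrophages 5.72 and 6.04 against 5.56 and 5.97. Both lists were thus slightly lower after TCDD within each number. The granulocyte list was lower within each number too, at 7.72 and 7.01 after oil against 7.61 and 6.30 after TCDD. Members of a list did not all go the same way, and Batf3, of the conventional dendritic list, was higher within both numbers. The part of these lists in the Irf8 level was not tested.

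The TCDD difference was lower in the emigrants than in the thymocytes for most of the group. Of the 36 genes, 29 had a lower difference in the emigrants (80.6%, against 43.3% of all genes) and 7 a higher one, with a median of -0.20 (all genes 0.04). In the probe sets used, this held for all 9 effectors, all 6 GTPases and all 3 sensor and ligase genes. Their medians were -0.23, -0.45 and -0.58. Other probe sets of these genes were divided. Those of Rsad2 (0.31 and 0.34), Eif2ak2 (0.22) and Trim21 (0.20) had a higher difference in the emigrants, and those of Gbp2, Iigp1 and Trim25 a lower one. Those of Samhd1 gave 0.26, 0.21 and -0.13. The smallest p among the 36 genes was that of Irgm1, a regulator of the other immunity-related GTPases. It lay at 6.55 and 6.75 against 6.72 and 6.68 in the thymocytes, and at 7.02 and 7.61 after oil against 6.69 and 6.49 after TCDD in the emigrants. Its emigrant difference was -0.72 (SE 0.22, limma adjusted p = 0.9998) and the difference between sources -0.77 (SE 0.31, limma adjusted p = 0.9997). It was the only one of the 36 whose difference between sources had an unadjusted limma p under 0.05 (2.78%, against 0.888% of all genes in the lower direction and 0.29% in the higher). The median of the group came close to 0 without thymocytes oil 1 (-0.05) or without thymocytes TCDD 2 (-0.02), the same arrays on which the thymocyte shift rested. With emigrants oil 1 in the TCDD group the median was -0.13.

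Under oil the emigrants had higher levels than the thymocytes for many of these genes. Every measured GTPase was among them, and Samhd1 had the largest difference. Of the 36, 27 had a higher mean in the emigrants (75.0%, against 50.4% of all genes), with a median difference of 0.28 (all genes 0.00). Both emigrant arrays lay above both thymocyte arrays for 14 genes (38.9%, against 19.8%) and below both for 3, among them Irf8 (8.33%, against 19.6%). At an unadjusted limma p under 0.05 there were 9 higher (25%, against 4.48%) and 1 lower (2.78%, against 5.09%), with adjusted p from 0.1989. Leaving out an array moved the count between 24 and 30 of 36 and the median between 0.12, without thymocytes oil 1, and 0.44, without thymocytes oil 2. After TCDD the same comparison gave 20 of 36 higher (55.6%, against 57.2%), a median of 0.06 (all genes 0.04) and 10 genes with both emigrant arrays above (27.8%, against 22.1%) and 2 with both below (5.56%, against 15.5%). At an unadjusted limma p under 0.05 there were then 3 higher, Samhd1, Parp14 and Stat2 (8.33%, against 3.81%), and 0 lower (4.45% of all genes).

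The GTPases of the GBP and IRG families coat and disrupt vacuoles that hold microbes, and are classical targets of interferon gamma. All 6 had a higher mean in the oil emigrants than in the oil thymocytes (50.4% of all genes did), with a median of 0.91, and for 5 both emigrant arrays were above both thymocyte arrays (19.8% of all genes). After TCDD 5 of 6 were higher (57.2%), with a median of 0.45, and 4 had both emigrant arrays above (22.1%). Gbp2 lay at 6.56 and 6.55 in the oil thymocytes and at 7.43 and 8.01 in the oil emigrants (difference 1.16, SE 0.30, limma adjusted p = 0.3045). Its other probe set, at a mean level of 6.31, differed by 0.67. Iigp1 lay at 4.72 and 5.34 against 6.40 and 6.82 (1.58, SE 0.45, limma adjusted p = 0.3311), from levels near the array median in the thymocytes. A dim Iigp1 probe set at 4.28 differed by 0.71. Igtp lay at 6.94 and 7.90 against 8.30 and 9.44 (1.45, SE 0.55, limma adjusted p = 0.4621), and after TCDD at 7.65 and 7.89 against 8.37 and 9.52. Gbp3 differed by 0.64 under oil and 0.25 after TCDD, Irgm1 by 0.66 and -0.11, and Ifi47 by 0.27 and 0.08.

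**Figure D4:**
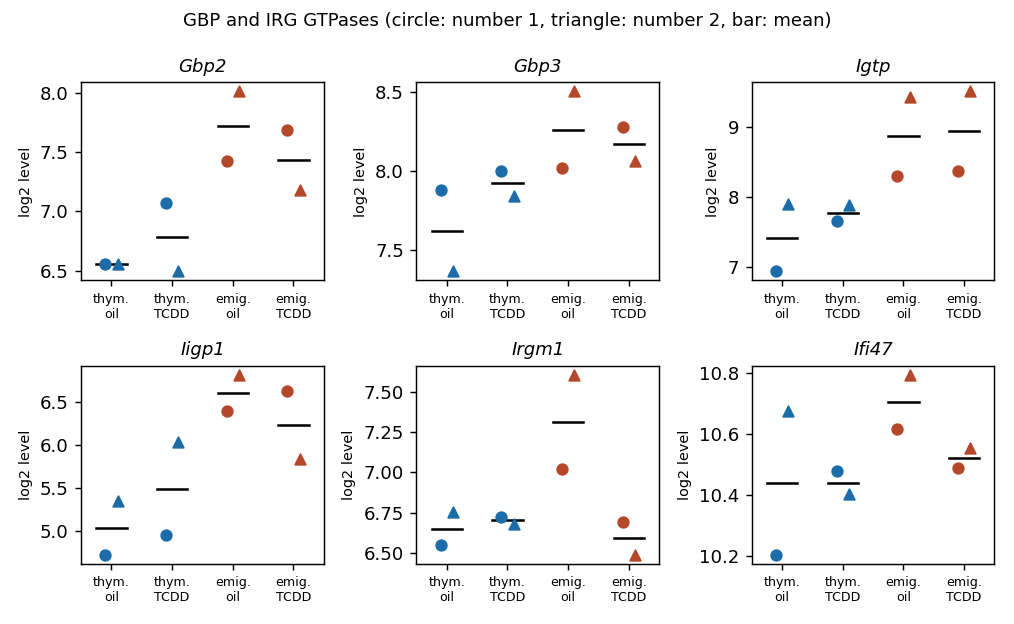
Log2 level (vertical axis, own scale in each panel) of the 6 GTPases by group (horizontal axis). Circles are number 1 arrays, triangles number 2 arrays and bars group means. Gbp2, Gbp3, Igtp, Iigp1 and Irgm1 lie higher in both oil emigrant arrays than in both oil thymocyte arrays, and Irgm1 is lower in both TCDD emigrant arrays than in both oil emigrant arrays.

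Ifng, the gene of interferon gamma, had higher levels in the oil emigrants too. It lay at 4.91 and 6.23 in the oil thymocytes and at 7.55 and 8.49 in the oil emigrants (log2 difference 2.45, SE 0.80, limma adjusted p = 0.3986). After TCDD it was at 4.71 and 6.76 in the thymocytes and at 6.84 and 5.75 in the emigrants, so both TCDD emigrant arrays were below both oil emigrant arrays (-1.73, SE 0.80, limma adjusted p = 0.9998). NK cells are a known source of interferon gamma, and the mean of their marker list was 8.19 and 8.35 in the oil emigrants, 7.94 and 7.15 in the TCDD emigrants, 6.68 and 7.10 in the oil thymocytes and 6.84 and 7.71 in the TCDD thymocytes. Of its 8 members 7 were measured, and they did not all have this order. Eomes, a factor of NK and cytotoxic cells, did, at 5.11 and 5.62 in the oil thymocytes, 8.22 and 7.75 in the oil emigrants and 6.24 and 5.22 in the TCDD emigrants. Gzma, which encodes granzyme A, did not, at 10.74 and 11.60 in the oil thymocytes and 10.43 and 11.21 in the oil emigrants. Ncr1, a receptor that marks NK cells, lay near the array medians on all arrays (4.72 to 5.23). The part of these cells in the GTPase levels was not tested.

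Samhd1, an enzyme that depletes the nucleotides that viruses need for DNA synthesis, was the gene that most clearly divided the sources. It lay at 6.99 and 7.94 in the oil thymocytes, 6.89 and 7.53 in the TCDD thymocytes, 9.27 and 9.91 in the oil emigrants and 8.81 and 9.40 in the TCDD emigrants. Every emigrant array was above every thymocyte array, by 4.36-fold in the means under oil (log2 difference 2.13, SE 0.43, limma adjusted p = 0.2284) and 3.72-fold after TCDD (1.90, SE 0.43, limma adjusted p = 0.3682). Its other 3 probe sets gave 1.26 to 1.57 under oil and 1.44 to 1.52 after TCDD. The pair differences after TCDD were small, at -0.10 and -0.41 in the thymocytes and -0.46 and -0.51 in the emigrants, and in its brightest other probe set the TCDD differences were 0.03 and -0.10.

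Parp14, an ADP-ribosyltransferase, also lay apart, at 7.81 and 7.62 in the oil thymocytes against 8.91 and 8.56 in the oil emigrants (1.02, SE 0.21, limma adjusted p = 0.2284), and at 8.01 and 8.08 against 8.58 and 9.01 after TCDD (0.75, SE 0.21). Rsad2 was 1.16 higher in the oil emigrants (SE 0.35, limma adjusted p = 0.3631; 0.44 for the next brightest of its probe sets) and 0.55 higher after TCDD. Irf1, the transcription factor that interferon gamma induces first, lay at 8.19 and 8.14 against 8.62 and 9.35 under oil (0.82, SE 0.30) and at 7.95 to 8.42 against 8.45 to 8.87 after TCDD (0.47). Stat2, a part of the type I complex, lay at 4.52 and 4.95 against 5.25 and 5.03 under oil and at 4.71 and 4.82 against 5.21 and 5.62 after TCDD, with both thymocyte TCDD arrays below their array medians. The size of its differences (0.40 and 0.65) therefore depends on levels near background, and its other, dimmer probe set gave 0.02 and -0.12. Ifitm3 went the other way under oil, at 7.92 and 8.34 in the thymocytes against 7.37 and 7.41 in the emigrants.

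Some genes of the group differed between the replicate numbers in every group of arrays, about as often as genes in general. Number 2 was above number 1 in all 4 groups for 5 genes, Bst2, Ifitm1, Igtp, Cxcl10 and Samhd1 (13.9%, against 10.4% of all genes), and below it in all 4 for Ifit2, Oasl1 and Ifih1 (8.33%, against 8.48%). Bst2, tetherin, which holds budding viruses on the cell surface, was at 6.31, 6.39, 5.85 and 6.27 in the number 1 arrays of oil thymocytes, TCDD thymocytes, oil emigrants and TCDD emigrants, and at 7.97, 8.91, 8.01 and 7.72 in the number 2 arrays. Cxcl10, a chemokine that draws activated T cells, was, in the same order of groups, at 4.94, 5.23, 5.30 and 5.50 in number 1 and at 5.73, 5.54, 6.36 and 6.73 in number 2. The macrophage marker list was higher in number 2 in every group as well (5.72 to 6.04, 5.56 to 5.97, 5.77 to 6.76 and 6.18 to 7.06), and the granulocyte list lower (7.72 to 7.01, 7.61 to 6.30, 6.23 to 6.00 and 8.36 to 5.70). Of the macrophage list 8 of 9 markers were measured, and of the granulocyte list 9 of 10. Their part in these levels was not tested. Usp18, a protease that limits the response, had opposite orders in the sources: number 2 was higher in the thymocytes (6.53 and 7.82, 6.59 and 8.02) and lower in the emigrants (7.20 and 6.39, 7.11 and 6.44).

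The RNA sensor Ifih1 (MDA5) lay at 7.86 and 7.32 in the oil thymocytes and 8.40 and 8.21 after TCDD, with no overlap (0.71, SE 0.43, limma adjusted p = 1), but at 8.46 and 7.67 against 8.69 and 7.59 in the emigrants. Trim25 and Trim21, ubiquitin ligases of RNA sensing and of antibody-coated virus, had thymocyte differences of 0.20 and 0.21 and emigrant differences of -0.31 and -0.37. Irf7 and Irf9, which amplify and carry the type I signal, had averaged differences of 0.18 and 0.01, and the feedback inhibitor Socs1 of 0.03. Mx2 spanned 5.08 to 5.28 over all 8 arrays, and Mx1 and Eif2ak2 were too close to or below the array medians for a fold to be given. Ifi35 differed by 0.35 in the thymocytes and 0.13 in the emigrants.

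The rest of the pathway was read from lists of genes outside these 40, and no member of any of them passed the adjusted threshold in any comparison. Of 19 interferon genes 10 were measured, and 6 of them lay below the array median on all 8 arrays, Ifnb1 among them at 3.76 to 4.26. After TCDD 6 of the 10 had a higher mean in the thymocytes and 4 in the emigrants. Of all genes 48.6% did in the thymocytes and 55.6% in the emigrants, and the lists that follow stand beside the same shares. Of 21 receptor, kinase and transducer genes 18 were measured, with 12 higher after TCDD in the thymocytes (median 0.18) and 7 in the emigrants (median -0.06). Jak2 lay at 8.38 and 7.60 in the oil thymocytes, 9.20 and 8.50 after TCDD, 9.56 and 8.66 in the oil emigrants and 9.01 and 8.91 in the TCDD emigrants. Tyk2 divided the sources, at 6.14 to 6.35 in the thymocytes against 6.78 to 7.16 in the emigrants (0.58 under oil, 0.79 after TCDD, limma adjusted p = 0.3428 and 0.3496). The receptor chains Ifnar1, Ifnar2, Ifngr1 and Ifngr2 had TCDD differences of 0.37, 0.53, -0.22 and 0.07 in the thymocytes and of -0.27, -0.07, -0.08 and -0.06 in the emigrants, Jak1 of 0.43 and -0.20, and Irf3 of 0.00 and -0.02. Of 21 sensor and adaptor genes 16 were measured, of which 11 were higher after TCDD in the thymocytes and 13 in the emigrants (medians 0.05 and 0.14).

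The list of other interferon-induced genes, with 45 of 69 measured, gave smaller shares than the 36 genes for TCDD in thymocytes and for the sources under oil. After TCDD 31 of 45 had a higher mean in the thymocytes (median 0.12, against 48.6% of all genes). In the emigrants 25 of 45 did (median 0.05, against 55.6% of all genes). Under oil 30 of 45 were higher in the emigrants than in the thymocytes (median 0.15, against 50.4% of all genes). Trim34a, a tripartite motif gene, lay at 7.58 and 7.67 in the oil thymocytes and at 8.56 and 8.24 after TCDD (0.77, SE 0.17, limma adjusted p = 1), with an emigrant difference of 0.13. Trim30a lay at 8.64 and 8.29 against 8.97 and 9.80 in the thymocytes and at 10.09 and 9.86 against 10.51 and 10.12 in the emigrants, so every emigrant array was above every thymocyte array. Cmpk2, the genomic neighbour of Rsad2, lay at 5.95 and 6.46 against 6.78 and 7.32 in the thymocytes (0.85, SE 0.29), the same direction as Rsad2. Not all of the list was higher in the emigrants: Lgals9, which encodes galectin-9, lay at 5.97 to 6.86 in the thymocytes and 5.19 to 5.42 in the emigrants (-1.29 under oil, SE 0.23, limma adjusted p = 0.1881).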

How the data were processed

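Expression was measured on 8 Affymetrix arrays, 2 in each group. The values are log2 intensities of 22690 probe sets as deposited; RMA, with no version, is the tool in the submitters' processing notes. RMA makes the array distributions alike, so a shift of most genes would not be seen, and it compresses dim differences. Gene symbols came from the annotation of the platform and were brought up to date with RefSeq identifiers (GRCm38.p6): 20393 probe sets had 1 symbol, 691 several and 1606 none, and only the first kind was used. Each gene was read from its probe set with the highest mean, giving 12394 genes; 9 of the 36 measured members had several probe sets. Group means were fitted to all 8 arrays with limma (version 3.58.1, R 4.3.3; lmFit and eBayes), which leaves 4 residual degrees of freedom. Tests were two-sided, and Benjamini-Hochberg adjusted p-values over all genes were held against 0.05. Within groups the median SD was 0.223, and the number of arrays limits the precision. The code was tested on simulated data.

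The 40 members and all lists were chosen with earlier results of these data known. All measured members were to be named, with up to 4 genes of each pathway list by p and a fixed set of receptors and kinases; fewer of the list genes are printed, a narrowing made after the data were seen. Where a group lay wholly below the array medians no fold is given, and a printed log2 difference then has an uncertain size. Alternatives were repeated quantile normalization, centring, a filter on dim genes, other probe set rules, eBayes with trend and robust settings, replicate blocks, only the arrays compared, the Treatment field for emigrants oil 1 and leaving out each array. Figures were drawn with matplotlib 3.10.9. No protein sequences were used here.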

Additional observations from a re-analysis of the deposited data

Results flagged for a closer look

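For 3 genes both TCDD arrays lay above the oil mean in the thymocytes and both below it in the emigrants. How many of all genes do so was not counted, so this count describes the list only. Irgm1 differed by 0.0512 in the thymocytes and by -0.72 in the emigrants, and the difference between these had a limma adjusted p of 0.9997. Trim21 differed by 0.21 and -0.37, and a dimmer probe set of it, at a mean level of 5.06, by -0.17 and 0.03. Eif2ak2 differed by 0.135 and -0.235, from levels below the array medians in most arrays, so the size of these differences is uncertain. Its other probe set, at a mean level of 4.11, differed by 0.03 and 0.25, with no turn of sign. The limma adjusted p of the difference between sources was 0.9997 for Trim21 and Eif2ak2 as well.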

How the results depend on the processing

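In every setting run, 0 of the members passed the threshold in each comparison. Counts over all genes, 0 with the settings of the report, became 1 for TCDD in thymocytes with a replicate block within each source. For TCDD in emigrants they became 1 with the Treatment field for emigrants oil 1, and ran from 0 to 2 with an array left out (2 without emigrants TCDD 2). For emigrants against thymocytes under oil they became 1 with probe sets averaged and 3 with the Treatment field. Under TCDD they became 2 with repeated quantile normalization, 1 with eBayes trend and robust settings, 1 with a random replicate block within each source (an added setting, correlation 0.532), 18 with the Treatment field, 6 without both emigrant arrays numbered 1, and 0 to 10 with an array left out (3 without emigrants oil 1 or oil 2, 10 without emigrants TCDD 1). For the difference between sources the Treatment field gave 1. For the averaged contrast a replicate block within each source gave 1 and leaving out an array 0 to 1 (1 without emigrants TCDD 2). Fits without an array assume that the lone array of its group varies like the others. The causes were not tested.

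The median of the members ranged with an array left out from 0.0326 to 0.29 for TCDD in thymocytes, from 0.12 to 0.44 for emigrants against thymocytes under oil and from -0.33 to -0.0245 for the difference between sources. Some array left out turned the sign of 23 of the 36 members for TCDD in thymocytes, 22 for TCDD in emigrants and 14 for the source comparison under oil.

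Oil and TCDD arrays of the same number deviated together within the thymocytes (r = 0.759 across genes) and the emigrants (r = 0.495) but not across sources (-0.097 to 0.109), and the labels do not say that a number marks a shared mouse or day. With the replicate block within each source the Ifitm1 difference had a limma adjusted p of 0.2598 in the thymocytes, 0.7762 in the emigrants and 0.1849 averaged over both. Arrays and signal near the median limit what can be said of Mx1, Oasl1, Eif2ak2 and Stat2.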
